A study of Mus musculus with 4 samples.

Results

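Genes of sterol and fatty acid synthesis were followed in sorted kidney tubules of mice fed a low or a high magnesium diet. The 32 genes were taken by symbol from a named list: 17 enzymes of cholesterol synthesis, 5 genes of the SREBP control system, 8 enzymes of fatty acid synthesis and 2 genes of sterol transport. Probes annotated to 31 of them were on the array, out of 21713 named genes, and Acat2 was not analysed here. Those 31 genes had 54 probes. Each gene was read by its brightest probe, and the other 23 probes were checked.

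Cholesterol is built from acetyl-CoA through the mevalonate pathway, which runs to squalene and then closes and trims the sterol ring. The fatty acid branch starts from the same acetyl-CoA, and its chains are made by fatty acid synthase and then lengthened and desaturated. Both branches are under transcription factors of the SREBP family. SCAP carries these factors out of the endoplasmic reticulum when sterols are low, and the INSIG proteins hold them there when sterols are plentiful. SREBP2 acts mainly on sterol genes and SREBP1c mainly on fatty acid genes.

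The mice carried a PV-eGFP transgene, in which the parvalbumin promoter drives the fluorescent protein eGFP, on the B6D2F2 background, and were 6 to 8 weeks old. The low diet held 0.02% magnesium by weight and the high diet 0.48%, each fed for 15 days, and both groups carried the transgene. Fluorescent tubules of the distal convoluted tubule, a nephron segment that takes magnesium back from the filtrate, were picked on a COPAS large-particle sorter. RNA of 4000 tubules was pooled per sample and amplified as cRNA in 2 rounds, and 8 samples were hybridised to 4 arrays. On every array littermates of both diets were set against each other, and a pair goes by the labels' sample numbers, H for high and L for low. In the pairs H1/L1 and H7/L7 the Cy5 dye marked the low diet, and in the pairs H3/L2 and H8/L8 it marked the high diet. Whether 1 mouse or several went into a sample is not stated in the labels, so the p-values measure the spread between these 4 pairs.

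Values are log2 ratios of low over high diet, positive where the low-diet sample was the brighter one, and are given as mean ± SD over the 4 pairs. Levels of single samples are log2 normalised intensities. The low-diet samples were above background at 65.5% to 97.4% of probes and the high-diet samples at 85.1% to 96.2%. All 12 distal convoluted tubule markers were above background in every sample, as were all 10 markers of the thick ascending limb, another nephron segment. Of the 12, 6 were higher on the low diet. Pvalb, whose promoter drives the reporter used for sorting, was among them at 2.27 ± 0.40 (SD, n = 4; adjusted p = 0.012). Slc12a3, the sodium chloride cotransporter that defines the segment, was at 0.13 ± 0.27 (SD, n = 4; adjusted p = 0.467).

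Within the cholesterol pathway 4 enzymes were lower on the low-magnesium diet, namely Hmgcs1, Idi1, Fdps and Sqle. The enzyme Sc5d and the SREBP regulator Insig2 were higher, with a second Sc5d probe pointing the other way. No fatty acid synthesis enzyme passed the threshold in either direction. By limma with Benjamini-Hochberg adjustment over 39429 probes, 6 of the 31 members passed an adjusted p of 0.05, or 19.4%, against 7.82% of all 21713 named genes. The 4 members lower on the low diet compare with 2.95% of all genes called lower, and the 2 higher members with 4.88% called higher. Members sat on brighter probes, at a median brightness rank of 76.3% against 60.6% for all named genes. With the dimmest 50% of probes left out, the same 6 members passed of 26 fitted, against 14.5% of all genes fitted. Of the 16 measured sterol enzymes 4 were lower, 1 was higher and 11 did not pass.

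**Figure D1:**
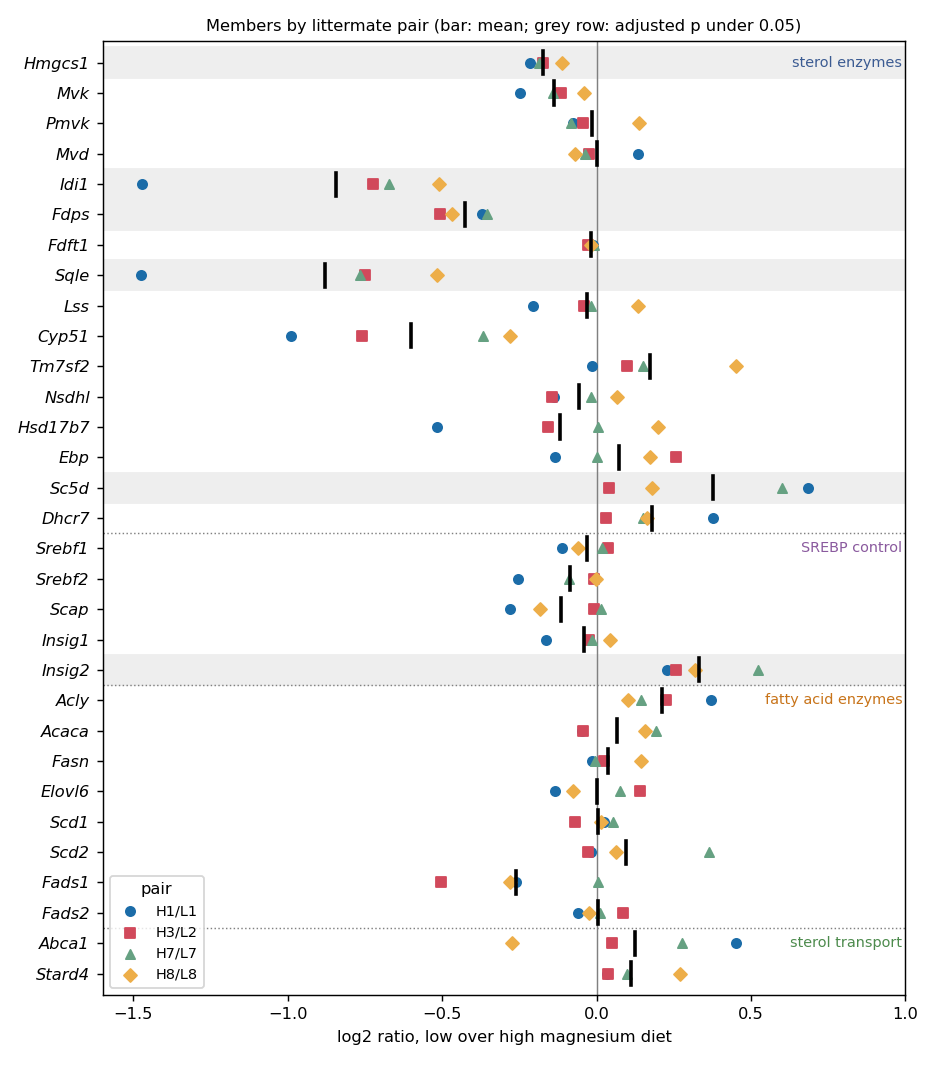
Log2 ratio of low over high magnesium diet (horizontal axis) for the 31 measured genes, grouped by role, with 1 point for each littermate pair and a bar at the mean. Sqle, Idi1 and Cyp51 lie to the left of 0 in all 4 pairs and farthest left in H1/L1, while most fatty acid enzymes scatter around 0.

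Sqle encodes squalene epoxidase, which oxidises squalene in a rate-limiting step of cholesterol synthesis. Its level was 8.70, 8.97, 9.55 and 9.46 in L1, L2, L7 and L8, and 10.17, 9.72, 10.31 and 9.98 in H1, H3, H7 and H8. Every low-diet sample lay below every high-diet sample. The pair H1/L1 had a ratio of -1.48, H3/L2 one of -0.75, H7/L7 one of -0.77 and H8/L8 one of -0.52. Their mean was -0.88 ± 0.42 (SD, n = 4; adjusted p = 0.033), a level 1.84-fold lower on the low diet. In bulk samples such as these, fewer cells that express a gene and less of its RNA per cell cannot be told apart.

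Idi1, isopentenyl diphosphate isomerase, makes the activated isoprene unit from which longer chains are joined. Its level was 11.19, 11.29, 11.91 and 11.82 in L1, L2, L7 and L8, against 12.66, 12.02, 12.59 and 12.33 in H1, H3, H7 and H8. These groups did not overlap either, and the pair H1/L1 again stood farthest apart at -1.47. The mean ratio was -0.84 ± 0.43 (SD, n = 4; adjusted p = 0.043), or 1.80-fold lower. A second Idi1 probe, above background in 2 low-diet and 1 high-diet samples, read -0.01 ± 0.06 (SD, n = 4).

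Fdps, farnesyl diphosphate synthase, joins isoprene units into farnesyl diphosphate, the branch point toward squalene. Its level was 9.79, 9.47, 9.82 and 9.61 in L1, L2, L7 and L8, and 10.16, 9.98, 10.18 and 10.08 in H1, H3, H7 and H8. The groups did not overlap, and the 4 pairs were close to each other, between -0.51 and -0.36. The mean was -0.43 ± 0.07 (SD, n = 4; adjusted p = 0.012), or 1.34-fold lower. Both other Fdps probes passed the threshold in the same direction. One read -0.88 ± 0.40 (SD, n = 4; adjusted p = 0.018) and the other -0.73 ± 0.39 (SD, n = 4; adjusted p = 0.031), and no other member was called by more than 1 probe.

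Hmgcs1, the cytosolic HMG-CoA synthase, makes the substrate of the pathway's rate-limiting reductase. Its level was 11.28, 11.20, 11.47 and 11.46 in L1, L2, L7 and L8, and 11.49, 11.37, 11.66 and 11.57 in H1, H3, H7 and H8. The groups overlapped, but within each pair the low-diet sample was the lower one. The mean ratio was small and tight at -0.17 ± 0.04 (SD, n = 4; adjusted p = 0.044), or 1.13-fold lower. A dimmer second probe read -0.05 ± 0.13 (SD, n = 4; adjusted p = 0.466).

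**Figure D2:**
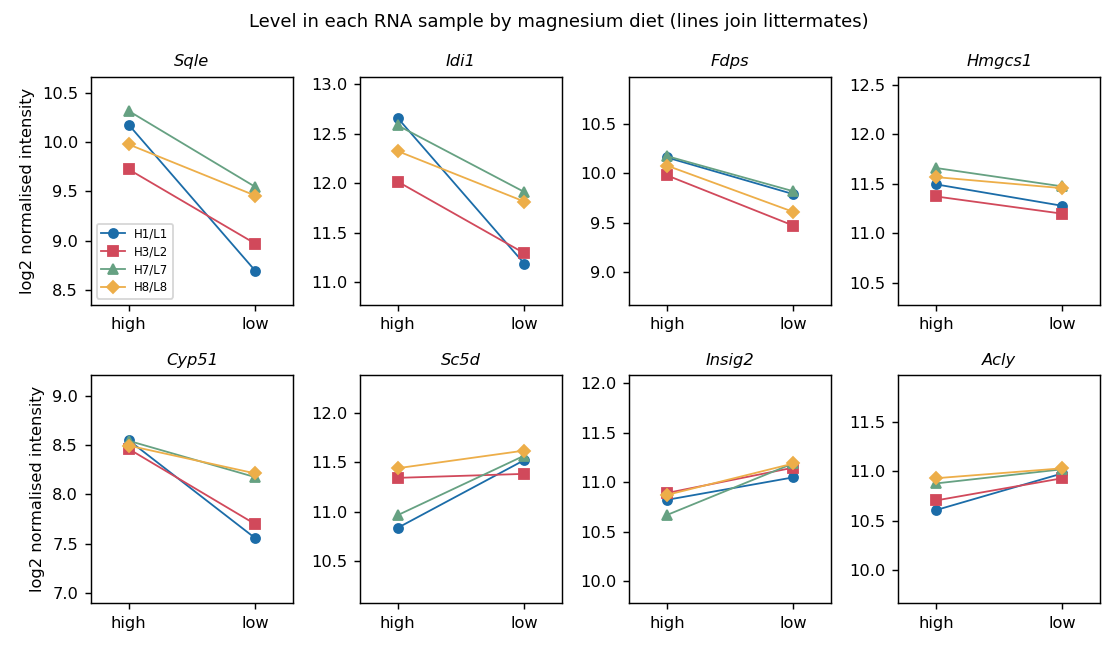
Normalised log2 intensity (vertical axis, the same span in every panel) of Sqle, Idi1, Fdps, Hmgcs1, Cyp51, Sc5d, Insig2 and Acly in each of the 8 samples, high diet on the left and low diet on the right, with lines that join littermates. For Sqle, Idi1, Fdps, Hmgcs1 and Cyp51 every line runs down from the high to the low diet, and for Sc5d, Insig2 and Acly every line runs up.

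The other enzymes up to squalene did not pass the threshold. Mevalonate kinase, Mvk, was below 0 in all 4 pairs, from -0.25 to -0.04, with a mean of -0.14 ± 0.09 (SD, n = 4; adjusted p = 0.100). The next kinase, Pmvk, was at -0.02 ± 0.10 (SD, n = 4; adjusted p = 0.878), and the decarboxylase Mvd at 0.00 ± 0.09 (SD, n = 4; adjusted p = 0.994). The pathway's steps stood at different ratios, with Pmvk and Mvd near 0 between Hmgcs1 and Idi1. Squalene synthase, Fdft1, read -0.02 ± 0.01 (SD, n = 4), but its probe was close to background and above it in only 3 of 4 low-diet samples.

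After squalene, the ratios were mixed. Cyp51, the lanosterol demethylase that follows ring closure, had levels of 7.56, 7.70, 8.17 and 8.21 in L1, L2, L7 and L8, and of 8.55, 8.46, 8.54 and 8.49 in H1, H3, H7 and H8. The high-diet samples were tightly grouped above all low-diet samples. The pair ratios ran from -0.99 in H1/L1 to -0.28 in H8/L8, and the mean of -0.60 ± 0.33 (SD, n = 4; 95% interval -0.94 to -0.26) missed the threshold, with an adjusted p of 0.078. It passed with median centring in place of loess (-0.57, adjusted p = 0.046) and in the authors' processed ratios (-0.69, adjusted p = 0.040). Lss, the cyclase that closes the ring, stood at -0.03 ± 0.14 (SD, n = 4; adjusted p = 0.788) on a dim probe.

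Among the enzymes that trim and finish the ring, Sc5d, sterol C5 desaturase, was the member that passed. Its level was 11.52, 11.38, 11.57 and 11.62 in L1, L2, L7 and L8, and 10.84, 11.34, 10.96 and 11.44 in H1, H3, H7 and H8. The groups overlapped, and the pairs split by dye: the ratio was 0.68 in H1/L1 and 0.60 in H7/L7, where the low-diet sample was in Cy5, and 0.04 in H3/L2 and 0.18 in H8/L8. The mean was 0.38 ± 0.32 (SD, n = 4; adjusted p = 0.019), from a fit that takes out the dye difference. A second Sc5d probe, also above background, was below 0 in all 4 pairs at -0.20 ± 0.14 (SD, n = 4; adjusted p = 0.106), so the probes gave opposite signs.

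The remaining late enzymes did not pass. Dhcr7, which reduces the last precursor to cholesterol, was above 0 in all 4 pairs at 0.18 ± 0.14 (SD, n = 4; adjusted p = 0.130). Tm7sf2, a sterol reductase, was at 0.17 ± 0.20 (SD, n = 4; adjusted p = 0.255), and Ebp, a sterol isomerase, at 0.07 ± 0.17 (SD, n = 4; adjusted p = 0.353). Nsdhl and Hsd17b7, which act in removal of the methyl groups at one ring carbon, read -0.06 ± 0.10 (SD, n = 4) and -0.12 ± 0.30 (SD, n = 4). Hsd17b7 had the widest spread of these, from -0.52 in H1/L1 to 0.20 in H8/L8.

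The signs of the pairs were counted over all members. Of the 31 members 8 were below 0 in all 4 pairs, or 25.8%, against 12.2% of all named genes. Above 0 in all 4 pairs were 5, or 16.1%, which is near the 15.4% of all named genes. The 8 were the sterol enzymes Hmgcs1, Mvk, Idi1, Fdps, Fdft1, Sqle and Cyp51 together with Srebf2. Some of these signs belong to values close to 0. Fdft1, near background, ran from -0.028 to -0.008, and Srebf2 read -0.008 in H3/L2 and -0.0008 in H8/L8. These signs are those of the brightest probe: 2 other Mvk probes read 0.02 and 0.04, and a second Srebf2 probe read 0.25 ± 0.55 (SD, n = 4), with one pair at 1.07. The 5 were Sc5d, Dhcr7, Insig2, Acly and Stard4.

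In the SREBP system, Insig2 was higher on the low diet and 4 genes did not pass. Insig2, which holds the SREBP and SCAP complex in the endoplasmic reticulum, had levels of 11.05, 11.15, 11.19 and 11.19 in L1, L2, L7 and L8. It stood at 10.82, 10.89, 10.67 and 10.87 in H1, H3, H7 and H8. All low-diet samples lay above all high-diet samples, and the mean ratio was 0.33 ± 0.13 (SD, n = 4; adjusted p = 0.045), or 1.26-fold higher. A second, dimmer probe read 0.20 ± 0.25 (SD, n = 4; adjusted p = 0.348).

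Its relative Insig1, a well-known target of SREBP, was at -0.04 ± 0.09 (SD, n = 4; adjusted p = 0.635) on a probe near background. The transcription factor genes Srebf1 and Srebf2 were at -0.03 ± 0.07 (SD, n = 4; adjusted p = 0.727) and -0.09 ± 0.12 (SD, n = 4; adjusted p = 0.285). The Srebf1 probe does not separate the isoforms of that gene as far as the files show. Scap, the escort protein, was at -0.11 ± 0.14 (SD, n = 4; adjusted p = 0.393).

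The promoters of called members are shown because SREBP2 acts on this pathway through sterol regulatory elements beside CCAAT boxes, which bind NF-Y. RefSeq promoter windows of assembly GRCm38.p6, from 250 bases before to 50 after the start, were searched on both strands. The letters were TCACNCCAC for the core of a sterol regulatory element and CCAAT for the box, which do not overlap in the windows shown. Of the 6 called members, 4 had an entry. The 150 bases before the start are printed in the gene's direction, 5′ to 3′, with motif letters of either strand in capitals. The windows are chr13:119690201-119690350 on the plus strand for Hmgcs1, chr13:8885456-8885605 on the plus strand for Idi1, chr9:42264301-42264450 on the minus strand for Sc5d, and chr1:121332590-121332739 on the minus strand for Insig2, which has 3 windows.
Hmgcs1: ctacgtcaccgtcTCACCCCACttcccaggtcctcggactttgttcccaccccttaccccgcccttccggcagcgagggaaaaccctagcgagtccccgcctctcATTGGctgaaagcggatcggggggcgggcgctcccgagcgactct
Idi1: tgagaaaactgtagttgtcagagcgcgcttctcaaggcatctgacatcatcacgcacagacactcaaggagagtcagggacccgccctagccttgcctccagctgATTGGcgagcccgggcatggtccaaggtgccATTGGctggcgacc
Sc5d: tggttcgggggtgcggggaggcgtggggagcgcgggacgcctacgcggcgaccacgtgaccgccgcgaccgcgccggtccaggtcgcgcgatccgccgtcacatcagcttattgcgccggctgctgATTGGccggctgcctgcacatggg
Insig2: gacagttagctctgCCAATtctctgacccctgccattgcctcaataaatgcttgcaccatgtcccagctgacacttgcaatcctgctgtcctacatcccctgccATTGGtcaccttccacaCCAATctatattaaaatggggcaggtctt
Hmgcs1 held the element letters TCACCCCAC 137 bases before the start and CCAAT boxes, read as ATTGG on the printed strand, 45, 176 and 237 bases before it. Idi1 had boxes at 45 and 14 bases, Sc5d at 24, and Insig2 at 136, 46 and 29.

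Over all genes in the promoter table, the element letters stood in 388 of 27025, or 1.44%, and the CCAAT box in 11096, or 41.1%. Of 25 members with an entry, the element letters stood in 1, Hmgcs1, and the box in 19. The box was in 13 of 14 sterol enzymes with an entry, Acat2 being the exception, and in 2 of 5 fatty acid enzymes, Acly and Fasn. A match of letters is a description of the window and not a binding site.

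None of the 8 fatty acid enzymes passed the threshold by limma's adjusted p. At an unadjusted p under 0.05 there was 1 higher and 1 lower, against 3169 higher and 2635 lower of all 21713 named genes. The higher enzyme was Acly, ATP citrate lyase, which makes cytosolic acetyl-CoA for both branches. Its level was 10.98, 10.93, 11.02 and 11.03 in L1, L2, L7 and L8, and 10.61, 10.70, 10.88 and 10.93 in H1, H3, H7 and H8. The lowest low-diet and the highest high-diet sample met at 10.93. The ratios were 0.37, 0.23, 0.14 and 0.10 in the pairs of L1, L2, L7 and L8, with a mean of 0.21 ± 0.12 (SD, n = 4; adjusted p = 0.093). A second, dimmer Acly probe was below 0 in all 4 pairs at -0.04 ± 0.02 (SD, n = 4; adjusted p = 0.546), and the mean of both probes was 0.09.

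Fads1, a desaturase of polyunsaturated fatty acids, was the other. Its ratios were -0.26, -0.50, 0.00 and -0.28 in the pairs of L1, L2, L7 and L8. The pair H7/L7 showed no difference, and the mean was -0.26 ± 0.21 (SD, n = 4; adjusted p = 0.094). With median centring in place of loess it passed, at -0.30 and an adjusted p of 0.037. Its neighbour in the pathway, Fads2, was at 0.00 ± 0.06 (SD, n = 4; 95% interval -0.09 to 0.09).

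The core enzymes lay close to 0. Acaca, acetyl-CoA carboxylase, the committed step, was at 0.07 ± 0.13 (SD, n = 4; 95% interval -0.08 to 0.22), and its 4 other probes were not called. Fasn, fatty acid synthase, read 0.04 ± 0.07 (SD, n = 4; 95% interval -0.05 to 0.12) on a probe near background. The elongase Elovl6 was at 0.00 ± 0.13 (SD, n = 4; 95% interval -0.15 to 0.15).

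The desaturases that introduce the double bond of oleate were Scd1 at 0.01 ± 0.05 (SD, n = 4; 95% interval -0.07 to 0.08) and Scd2 at 0.10 ± 0.18 (SD, n = 4; 95% interval -0.09 to 0.28). For Scd2 the pair H7/L7 stood apart at 0.36, with the other pairs between -0.03 and 0.06. The upper and lower limits of Acaca, Fasn, Elovl6, Scd1, Scd2 and Fads2 all lie nearer to 0 than the mean ratios of Fdps, Idi1 and Sqle. The upper limits of Acaca and Scd2 lie farther from 0 than the mean ratio of Hmgcs1, which was -0.17. That describes the intervals on these 4 pairs and is no test between genes. The probes compared also differed in log2 brightness. Fasn, Scd1 and Fads2 were at 6.55, 7.03 and 7.04, and Fdps, Sqle and Idi1 at 9.88, 9.59 and 11.98. Near background a ratio is drawn toward 0, so the Fasn interval says little about the size of its difference.

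**Figure D3:**
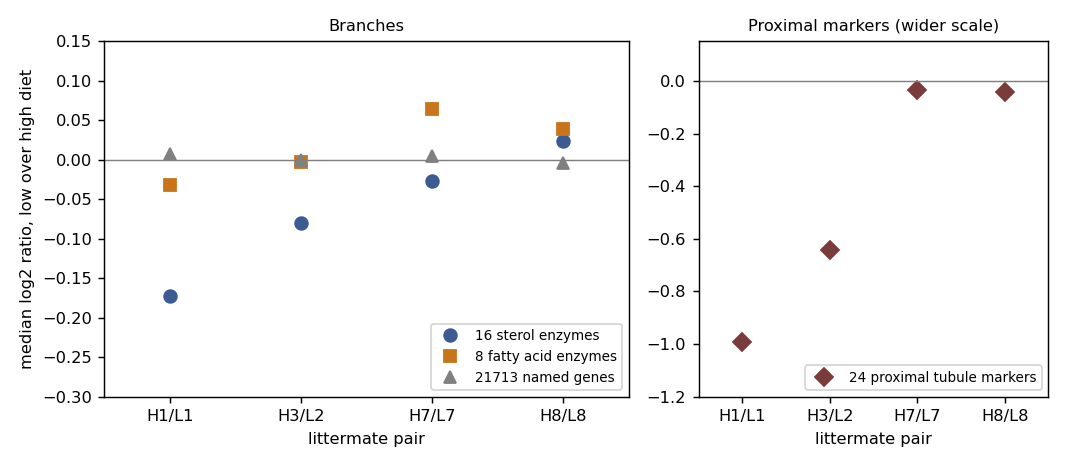
Median log2 ratio of low over high diet (vertical axis) in each of the 4 pairs for 16 sterol enzymes, 8 fatty acid enzymes, 24 proximal tubule markers and all 21713 named genes. The sterol median lies below the fatty acid median in every pair by 0.14 or less, and the proximal marker median is far below 0 in H1/L1 and H3/L2 and near 0 in the other pairs.

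The medians of the branches were set side by side. The sterol enzymes had a median of -0.05 and ranged from -0.88 to 0.38, and the fatty acid enzymes had a median of 0.02 and ranged from -0.26 to 0.21. Over all named genes the median was 0.0017. The sterol median minus the fatty acid median was -0.07, and it was -0.14, -0.08, -0.09 and -0.02 in the pairs of L1, L2, L7 and L8. The difference kept its sign in all alternatives but its size depended on them: it was -0.22 with plain background subtraction, -0.12 without the dimmest 50% of probes and without H8/L8, -0.11 with median centring and in the authors' processed ratios, and -0.04 where all probes of a gene were averaged. The low end of the sterol branch was made by Sqle, Idi1, Cyp51 and Fdps, while 11 of its 16 genes did not pass. Called shares of the branches, 4 lower and 1 higher of 16 against 0 of 8, were not tested against each other. The sterol enzymes also sat on brighter probes, at a median brightness rank of 80.5% against 67.4% for the fatty acid enzymes.

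Of the sterol transport genes neither passed. Abca1, which exports cholesterol to lipoproteins, was at 0.45, 0.05, 0.28 and -0.27 in the pairs of L1, L2, L7 and L8, a mean of 0.13 ± 0.31 (SD, n = 4; adjusted p = 0.374). Stard4, a carrier of sterols between membranes and a target of SREBP2, was at 0.11 ± 0.11 (SD, n = 4; adjusted p = 0.283).

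**Figure D4:**
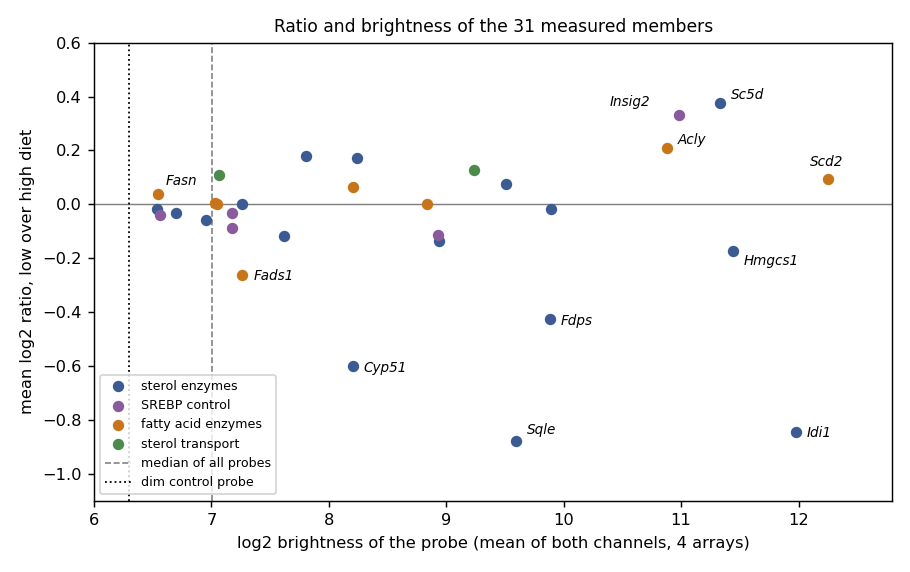
Mean log2 ratio of low over high diet (vertical axis) against mean log2 brightness of the probe (horizontal axis) for the 31 measured genes, coloured by role, with vertical lines at the median of all probes (dashed) and of the dim control probe (dotted). Fasn and the unlabelled points beside it, Fdft1 and Insig1, lie nearest to the dotted line with ratios near 0.

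Probe brightness limited some of these readings. The median over all probes was 7.005, against 6.297 for the dim control spots. Fdft1, Insig1 and Fasn were above background in 3 of 4 low-diet and all 4 high-diet samples, and each had a mean brightness of 6.54 to 6.56. The other 28 measured members were above background in every sample of both diets, and no member spot was saturated. Near background a ratio is drawn toward 0, so the values of those 3 genes say little about their size.

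Markers of the proximal tubule, another nephron segment, were read beside the sterol ratios. Of 24 proximal markers measured, 2 were lower (Slc5a2 and Kap) and 1 higher (Ggt1) by limma's adjusted p. At an unadjusted p under 0.05 limma gave 8 lower and 1 higher, against 2635 lower of all 21713 named genes. Below 0 in all 4 pairs were 10 of the 24, against 12.2% of all named genes. The summed linear level of these markers was 6896 to 8693 in low-diet and 7807 to 17431 in high-diet samples. Their median ratio was -0.99 in H1/L1, the pair in which Sqle, Idi1 and Cyp51 were farthest below 0, and -0.64 in H3/L2. It was -0.04 in both H7/L7 and H8/L8, where Sqle read -0.77 and -0.52 and Idi1 -0.67 and -0.51. Single markers lay on either side of 0 in those pairs. The 2 called lower were below it: Kap, an androgen-regulated kidney protein, read -1.54 and -0.41, and the glucose transporter Slc5a2 -0.56 in each. Above it were Slc13a3, at 0.12 and 0.79, and Ggt1, at 0.11 and 0.35. The part of proximal cells in the sterol ratios was not tested.

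Markers of other cells were given the same reading. Of 10 thick ascending limb markers 2 were higher and 1 lower, with a summed level of 71190 to 95115 in low-diet and 30605 to 52327 in high-diet samples. The sum over the 12 distal convoluted tubule markers was 87023 to 93072 against 31557 to 60633. Both sums were higher in every low-diet sample than in any high-diet sample, but a linear sum is weighted toward the brightest probes. The brightest thick limb probes, Umod and Kcnj1, were the 2 higher at 1.46 and 0.66, and Ptger3 was the lower at -1.95. The thick limb list had a median ratio of 0.03, and of -0.17, -0.04, -0.06 and 0.24 in the pairs of L1, L2, L7 and L8. For the distal convoluted tubule list the median was 0.40. The part of either segment in the ratios of Insig2 and Sc5d was not tested.

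Among 14 collecting duct markers 1 was higher. None of 8 adipocyte, 11 endothelial and stromal, 9 leukocyte and 4 podocyte markers was called by limma's adjusted p. At an unadjusted p under 0.05 these lists gave 1 higher and 1 lower, 0 and 3, 0 and 2, and 0 and 1. Over all 21713 named genes limma gave 3169 higher and 2635 lower at that p. The adipocyte markers had a summed level of 1011 to 1072 in low-diet and 1033 to 1146 in high-diet samples. Of these 8 markers, 4 were not above background in every sample.

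**Figure D5:**
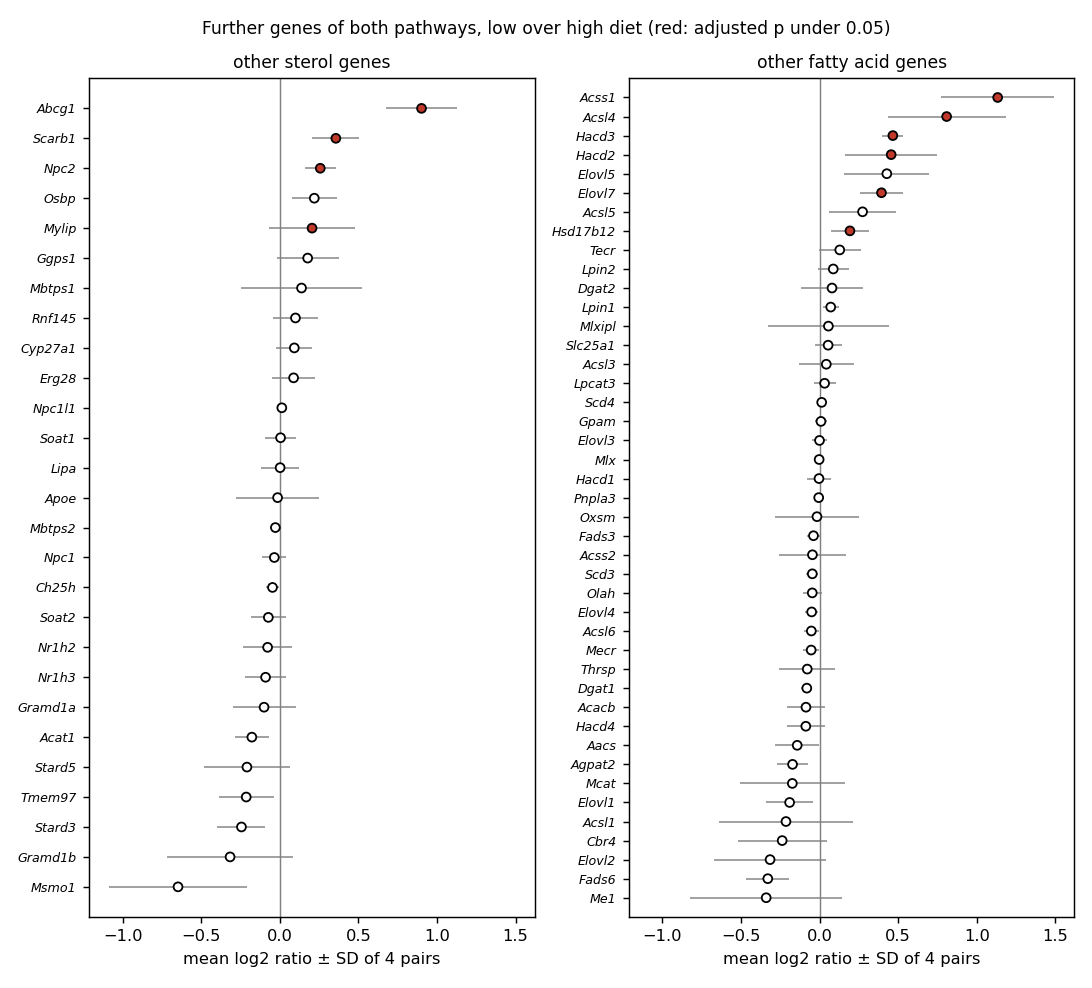
Mean log2 ratio of low over high diet (horizontal axis) for 27 further sterol genes and 43 further fatty acid genes, 1 panel each. Bars give the SD over the 4 pairs. Red points passed the threshold and open points did not. Acss1, Abcg1 and Acsl4 lie farthest to the right, and the bar of Mylip crosses 0.

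Beyond the members, 77 further genes of sterol and fatty acid metabolism were listed and 70 measured. Of these 10 were higher on the low diet, or 14.3%, against 4.88% of all genes called higher, and 0 were lower. At an unadjusted p under 0.05 limma gave 16 higher and 11 lower of the 70, against 3169 higher and 2635 lower of all 21713 named genes. The 70 genes sat on brighter probes, at a median brightness rank of 74.1% against 60.6% for all named genes. With the dimmest 50% of probes left out, 14.5% of all genes fitted passed in either direction, and 57.8% of the called probes were higher. The medians of the lists were at -0.01 for 27 sterol genes and -0.01 for 43 fatty acid genes, so the called genes stood out from lists centred near 0.

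Of the 27 sterol genes 4 were higher and 23 did not pass. Abcg1, which exports cholesterol, had ratios of 1.05, 1.14, 0.71 and 0.70 in the pairs of L1, L2, L7 and L8 and a mean of 0.90 ± 0.23 (SD, n = 4; adjusted p = 0.020). All pairs lay well above 0. Scarb1, the HDL receptor, was at 0.36 ± 0.15 (SD, n = 4; adjusted p = 0.018), and Npc2, a lysosomal sterol carrier, at 0.26 ± 0.10 (SD, n = 4; adjusted p = 0.036). Mylip, a ligase that marks lipoprotein receptors for breakdown, was at 0.20 ± 0.27 (SD, n = 4; adjusted p = 0.043), with 2 pairs above 0 and 2 just below it, split by dye. Other genes of sterol transport that did not pass lay on either side of 0, among them the carrier Stard3 at -0.24 ± 0.15 (SD, n = 4; adjusted p = 0.069), below 0 in every pair, and the oxysterol-binding protein Osbp at 0.22 ± 0.14 (SD, n = 4; adjusted p = 0.083), above 0 in every pair. Both are named after their values were seen.

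Of the fatty acid genes 6 were higher. Acss1, the mitochondrial acetyl-CoA synthetase, had ratios of 1.11, 1.18, 1.56 and 0.68 in the pairs of L1, L2, L7 and L8 and a mean of 1.13 ± 0.36 (SD, n = 4; adjusted p = 0.019). Acsl4, which activates arachidonate and related fatty acids, was at 0.81 ± 0.37 (SD, n = 4; adjusted p = 0.028). The pair H7/L7 was highest for both.

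The other 4 act in fatty acid elongation in the endoplasmic reticulum. They are 4 of 12 genes of that cycle measured on the list, of which 0 were lower and 8 did not pass. Elovl7, an elongase, was at 0.39 ± 0.14 (SD, n = 4; adjusted p = 0.013). The dehydratases Hacd2 and Hacd3 were at 0.46 ± 0.29 (SD, n = 4; adjusted p = 0.036) and 0.47 ± 0.07 (SD, n = 4; adjusted p = 0.014). The reductase of the same cycle, Hsd17b12, was at 0.19 ± 0.12 (SD, n = 4; adjusted p = 0.048). All 4 were above 0 in every pair. Among the 8 that did not pass, the elongase Elovl1 was below 0 in every pair at -0.19 ± 0.15 (SD, n = 4; adjusted p = 0.089), Elovl2 was at -0.31 ± 0.35 (SD, n = 4; adjusted p = 0.307) and Elovl5 was at 0.43 ± 0.27 (SD, n = 4; adjusted p = 0.101). These 3 are named after their values were seen, and the genes of the cycle did not share a direction.

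The sterol enzyme Msmo1, a methyl oxidase that acts after Cyp51 in the pathway, did not pass and is named after its values were seen. Its ratios were -1.18, -0.79, -0.43 and -0.18 in the pairs of L1, L2, L7 and L8. As for Cyp51, the pairs were all below 0 and H1/L1 lowest. The mean was -0.65 ± 0.44 (SD, n = 4; adjusted p = 0.101).

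The calls rested on all 4 pairs. Without H1/L1 no member passed and 0.318% of all genes did. Without H8/L8 no member passed, and 0.806% of all genes did. Without H3/L2 Fdps and Sc5d passed, with 2.83% of all genes, and without H7/L7 Idi1, Fdps and Sqle did, with 1.53%. Over these fits the mean ratio ran from -1.06 to -0.70 for Sqle, from -1.04 to -0.65 for Idi1 and from -0.44 to -0.42 for Fdps. It ran from -0.19 to -0.16 for Hmgcs1, from 0.34 to 0.41 for Sc5d and from 0.26 to 0.41 for Insig2.

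The authors' deposited table of this comparison, turned to run high over low diet, had a p under 0.05 at 287 of 39429 probes and for 1 of the 31 members. That member was Fdps, with a log2 ratio of 0.45 and a p of 0.042 in the authors' deposited table. Sqle stood at 0.91 (p = 0.166) and Idi1 at 0.82 (p = 0.744) in the authors' deposited table. Cyp51 stood at 0.69 (p = 0.827) and Sc5d at -0.38 (p = 0.343) in the authors' deposited table. The signs are those of the ratios above once turned, and the sources used here do not say whether these p-values were adjusted.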

How the data were processed

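The deposited scan of each array holds spot intensity on a linear scale, signal and local background apart, and the authors had not subtracted the background. The sources used here name neither the scanner nor its software. The authors' deposited processed values are log2 ratios of Cy5 over Cy3, whose normalization the sources do not give. For the diet comparison the authors' deposited table gives each probe's log2 ratio and p-value, from maanova per the file headers.

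From the scans, mean pixel signals went through normexp (offset 50) and were normalised within arrays by loess, with 5791 control spots at weight 0. All ratios were given the direction low over high and fitted with limma 3.58.1 (R 4.3.3, statmod 1.5.0), with terms for diet and dye. This left 2 residual degrees of freedom, to which moderation added 2.68. Tests were 2-sided, and p-values were adjusted by Benjamini-Hochberg over 39429 probes at 0.05. The array is the littermate pair. An SD also holds the dye difference that the fit removes. Levels of single samples were scaled between arrays with Aquantile, and marker sums are on the linear scale. A channel was above background past percentile 99 of the 604 spots of a dim control probe, and saturated at 65000. The number of arrays limited the precision.

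Symbols came from the platform annotation for 32431 probes, 3841 of them updated through RefSeq synonyms (GRCm38.p6). The genes and lists were chosen with earlier results of these data known, so no list was tested as a whole. All members are named, as are those further pathway genes that passed the threshold. The alternatives tried were plain background subtraction, median centring, no dye term, the authors' processed ratios, leaving out dim probes, the mean of a gene's probes, median pixel signals and leaving out each pair.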

Additional observations from a re-analysis of the deposited data

How the results depend on the processing

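No gene past the threshold changed sign under any of the 11 alternatives. The fit called 2296 probes, 2 members higher and 4 lower. Plain background subtraction called 279 probes, 0 members higher and 0 lower by limma's adjusted p, with 12 members at an unadjusted p under 0.05, and higher probes made up 73.1% of calls against 59.7%. It put the sterol median at -0.15, the fatty acid median at 0.066 and their difference at -0.22. Without a dye term there were 824 probes, 0 members higher and 1 lower, Fdps. Median centring gave 1 member higher, Sc5d, and the mean of a gene's probes 0 higher and 2 lower, Fdps and Sqle. That mean moved Sc5d to 0.09, Idi1 to -0.43 and Fdps to -0.68. With the dimmest 50% of probes left out the branch difference was -0.12. Leaving out 1 pair at a time gave 83 to 863 probes, 0 to 1 members higher and 0 to 3 lower.

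Fdps passed in 8 of the 11 alternatives, Sqle in 6, Idi1 and Sc5d in 5, Insig2 in 3 and Hmgcs1 in 2. Among further pathway genes Abcg1, Acss1 and Hacd3 passed in 8, Elovl7 and Acsl4 in 7, Scarb1 and Hacd2 in 6, Npc2 in 5, and Mylip and Hsd17b12 in 4. Of 446 values of single genes under an alternative, 359 stayed on the same side of the threshold, 84 lost it and 3 gained it. Of those past no threshold, 26 changed sign. The cause of these changes was not tested. Fdft1, Insig1 and Fasn are limited by signal near background.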
